A study of Homo sapiens with 4 samples.

Results

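The polypyrimidine tract binding (PTB) paralogs PTBP1, PTBP2 and PTBP3 and the PTBP1 cofactors RAVER1, RAVER2 and MATR3 were followed through 4 RNA-seq libraries of the human prostate cancer line DU145. The members were chosen by gene symbol, as PTBP1, its paralogs and proteins that act with it in splicing. The 6 symbols correspond to 7 of the 20474 gene identifiers listed in all 4 tables, because MATR3 has a pair of them. One library came from cells given control siRNA, 2 from cells given PTBP1 siRNA and 1 from cells given siRNA against DNMT3B-L, the form of the DNA methyltransferase DNMT3B that the labels abbreviate in this way. All cells were labelled wild type and received 75 nM siRNA with Lipofectamine RNAiMAX for 48 h. The PTBP1 siRNA libraries were made with different siRNAs, called here PTBP1 siRNA 1 and PTBP1 siRNA 2, so their spread includes what sets the siRNAs apart. Whether the libraries are from separate cultures is not stated, and p-values therefore measure only the spread between these libraries.

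PTBP1 is an RNA-binding protein that recognises pyrimidine-rich stretches beside exons and mostly represses the inclusion of those exons. Most dividing cells make PTBP1, whereas PTBP2 prevails in developing neurons and PTBP3 was first known from blood cells. PTBP1 keeps PTBP2 low by causing 1 exon of its transcript to be skipped, which shifts the reading frame and exposes the transcript to nonsense-mediated decay, the pathway that removes messages with an early stop codon. It limits its own transcript in the same way. Raver1 and matrin 3, the proteins of RAVER1 and MATR3, dock to a PTB RNA recognition motif through short peptides and act with PTBP1 at some of its exons. RAVER2 encodes a close relative of raver1.

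The exon through which PTBP1 is known to lower PTBP2 and itself is printed here. With both PTBP1 siRNAs PTBP2 was high and PTBP1, their target, was low. Whether the exon took part was not tested. The exon is 34 bases long in PTBP1 and PTBP2, and PTBP3 has a counterpart of the same length. The sequences were read from GENCODE v29 transcripts on GRCh38, 5′ to 3′, and capitals mark the bases that are identical in all 3 paralogs.
PTBP1: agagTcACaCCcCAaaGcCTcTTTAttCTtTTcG
PTBP2: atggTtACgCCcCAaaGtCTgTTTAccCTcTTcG
PTBP3: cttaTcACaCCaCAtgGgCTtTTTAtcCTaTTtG
In PTBP1 this is exon 10 of 14 of its principal transcript (chr19:807869-807902, plus strand), in PTBP2 exon 10 of 14 (chr1:96806419-96806452, plus strand) and in PTBP3 exon 11 of 15 (chr9:112231380-112231413, minus strand). All of it is coding sequence. The exons of PTBP1 and PTBP2 share 25 of 34 bases, those of PTBP1 and PTBP3 share 22, those of PTBP2 and PTBP3 share 21, and 19 are common to all 3.

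A length of 34 is no multiple of a codon, and removal of the exon shortened the open reading frame of each paralog. The frame of PTBP1 went from 531 to 355 residues, that of PTBP2 from 531 to 356 and that of PTBP3 from 552 to 376. The new stop codon lay 361 bases before the last exon junction in each transcript. A direct junction between the neighbouring exons was annotated in 2 PTBP1 transcripts, both classed as targets of nonsense-mediated decay, in 3 PTBP2 transcripts, classed as processed transcripts, and in 0 PTBP3 transcripts. The deposited values count reads per gene, so inclusion of the exon was not measured in these libraries.

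The deposited values are CPM, read counts scaled to the same total in each library, and the tables rested on 22332245 to 24088975 read pairs per library. All 7 member identifiers reached 1 CPM in at least 1 library and were tested. In CPM, PTBP1 lay between 135 and 982 over the 4 libraries, PTBP3 between 167 and 268, RAVER1 between 81.1 and 127, RAVER2 between 25.9 and 31.4, PTBP2 between 6.45 and 70.9, and the MATR3 identifiers between 1.47 and 10.4. CPM take no account of transcript length, so they are compared here between libraries and not between genes. Differences between groups were tested with limma on log2(CPM + 1) over 14942 genes. The threshold was an adjusted p (Benjamini-Hochberg) under 0.05. Only the PTBP1 siRNA group has more than 1 library, and single libraries were taken to vary like that pair. In a culture measured in bulk, fewer cells with a transcript and less of it per cell cannot be told apart.

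**Figure D1:**
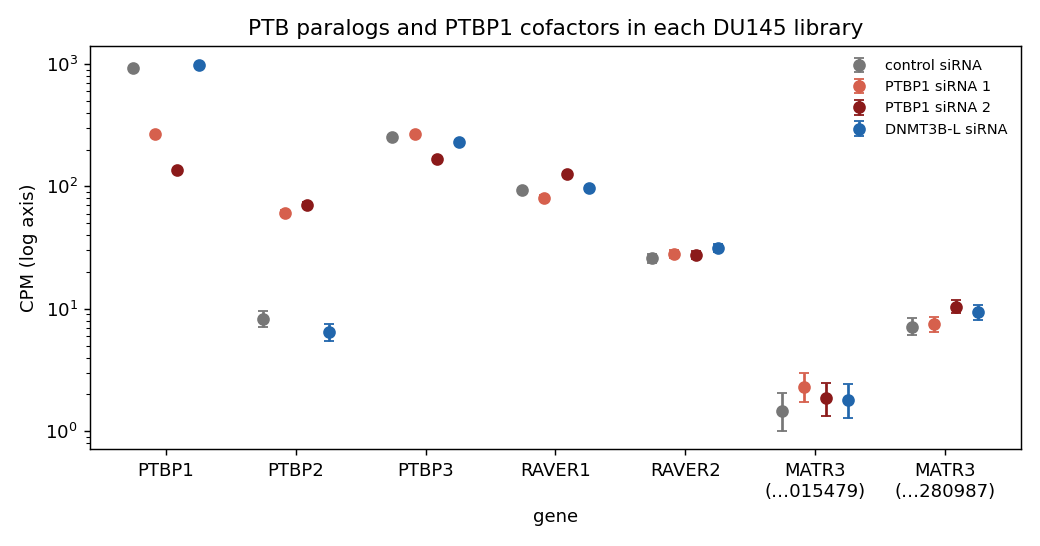
CPM of each member identifier (log axis) in the 4 DU145 libraries, with exact Poisson 95% intervals that cover counting error only. PTBP1 was low and PTBP2 high in both PTBP1 siRNA libraries, while RAVER2 lay between 25.9 and 31.4 CPM in all 4.

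PTBP1, the target of the siRNAs, was at 928 CPM with control siRNA, 268 CPM with PTBP1 siRNA 1, 135 CPM with PTBP1 siRNA 2 and 982 CPM with DNMT3B-L siRNA. Both libraries labelled PTBP1 siRNA thus lay well below both of the others. Against the control library, 28.9% of the PTBP1 level was left with PTBP1 siRNA 1 (95% interval 28.1% to 29.7%) and 14.55% with PTBP1 siRNA 2 (14.01% to 15.1%). Both intervals, like those for other single libraries, reflect counting error and nothing else. The level with PTBP1 siRNA 2 was 50.4% of that with PTBP1 siRNA 1 (48.3% to 52.6%). A difference of this size between the siRNAs, -0.98 on the log2(CPM + 1) scale, was reached in either direction by 3.94% of all genes tested. With DNMT3B-L siRNA, PTBP1 stood at 105.9% of control.

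The mean over the PTBP1 siRNA libraries was 201 ± 93.9 CPM (SD, n = 2). Against control siRNA the log2 fold change came to -2.28 (standard error 0.38, 95% interval -3.10 to -1.46), the second largest in size of the 14942, but its adjusted p was 0.352 in limma. It reached 0.01075 with DESeq2, which called 2 genes (0.0134%), and 0.0365 in limma when the control and DNMT3B-L libraries served together as the reference. Against DNMT3B-L siRNA the log2 fold change was -2.36 with an adjusted p of 0.168. PTBP1 was 1 of 26 genes (0.174% of those tested) at least 2-fold lower on the log2(CPM + 1) scale with both PTBP1 siRNAs. With PTBP1 siRNA 2 no gene had a lower log2 ratio to control, and with PTBP1 siRNA 1 it ranked 13th from the lowest.

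PTBP2 was at 8.26 CPM with control siRNA, 60.9 CPM with PTBP1 siRNA 1, 70.9 CPM with PTBP1 siRNA 2 and 6.45 CPM with DNMT3B-L siRNA. These values rest on 186, 1467, 1642 and 144 read pairs. The PTBP1 siRNA libraries lay far above the others. With DNMT3B-L siRNA, PTBP2 was at 78.0% of control (95% interval 62.3% to 97.5%, counting error only), and 19.1% of genes had a log2 ratio at least as low. PTBP2 was 7.37-fold of control with PTBP1 siRNA 1 (95% interval 6.32 to 8.63) and 8.58-fold with PTBP1 siRNA 2 (7.37 to 10.04). It had the highest log2 ratio to control of all genes tested in both libraries. It was 1 of 17 genes (0.114%) at least 2-fold higher with both.

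The mean over the PTBP1 siRNA libraries was 65.9 ± 7.06 CPM (SD, n = 2). Against control siRNA it gave a log2 fold change of 2.85 (standard error 0.33, 95% interval 2.13 to 3.57, adjusted p = 0.0199 in limma). PTBP2 thus rose, as 1 of the 7 member identifiers, and it was the 1 gene called among 14942 (0.00669%). Against DNMT3B-L siRNA the log2 fold change was 3.16 (adjusted p = 0.00632 in limma), again as the 1 gene called (0.00669%, with 5.33% of genes at an unadjusted p under 0.05). DESeq2 called 4 genes (0.034%) in that comparison, among them PTBP1 and PTBP2. The call against control siRNA was not kept by edgeR (log2 fold change 2.99, adjusted p = 0.0618), with edgeR on upper-quartile factors (0.177), with no filter on low values (0.999) or under quantile normalization (1). DESeq2 gave 2.998 with an adjusted p of 2.07e-08. The log2 fold change stayed between 2.42 and 3.01 over these and the other alternatives.

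The rise of PTBP2 was much alike with both siRNAs, although they left different amounts of PTBP1. PTBP2 with PTBP1 siRNA 2 was 1.16-fold of its level with PTBP1 siRNA 1 (95% interval 1.08 to 1.25, counting error only). On the log2(CPM + 1) scale the libraries differed by 0.22, and 58.5% of all genes tested differed by at least as much between them. The order of the PTBP2 levels was the reverse of the order of the PTBP1 levels in all 4 libraries, but the PTBP1 siRNA libraries did not differ in PTBP2 beyond the spread of most genes. With 4 libraries no relation between the levels was tested.

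**Figure D2:**
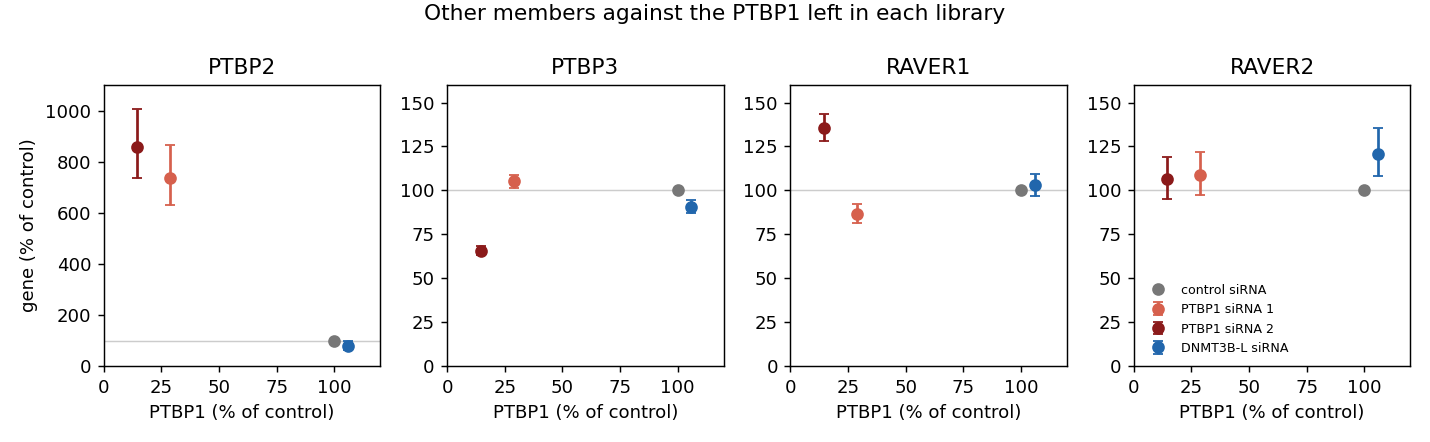
Level of PTBP2, PTBP3, RAVER1 and RAVER2 (percent of control siRNA, vertical axis, its own scale for PTBP2) against the PTBP1 left (percent of control siRNA, horizontal axis), with 95% counting intervals and a grey line at the control level. PTBP2 was at 737% and 858% with PTBP1 siRNA 1 and 2, whereas PTBP3 and RAVER1 lay on opposite sides of the control level with the 2 siRNAs.

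PTBP3, the third paralog, was at 254 CPM with control siRNA, 268 CPM with PTBP1 siRNA 1, 167 CPM with PTBP1 siRNA 2 and 231 CPM with DNMT3B-L siRNA. PTBP1 siRNA 2 alone stood apart, and the other libraries lay within a narrow range. PTBP3 was at 105.2% of control with PTBP1 siRNA 1 (95% interval 101.5% to 109.0%), 65.6% with PTBP1 siRNA 2 (63.0% to 68.4%) and 90.8% with DNMT3B-L siRNA (87.4% to 94.3%). With PTBP1 siRNA 2 the log2 ratio to control was -0.60, and 7.64% of genes were at least as low. The libraries of the 2 siRNAs differed by -0.68, a size that 12.1% of genes reached.

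The mean of PTBP3 over the PTBP1 siRNA libraries was 217 ± 71.2 CPM (SD, n = 2). Its log2 fold change against control siRNA was -0.27 (standard error 0.34, 95% interval -0.999 to 0.47, adjusted p = 0.9998 in limma). It did not pass, and its direction rests on PTBP1 siRNA 2, since the log2 ratio of PTBP1 siRNA 1 alone was 0.07. Unlike PTBP2, PTBP3 was not above control in both libraries.

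Divided by the length of their merged exons in GENCODE v29 (6883 bases for PTBP1, 12937 for PTBP2 and 8239 for PTBP3), the paralogs can be set beside each other. In the control library PTBP1 made up 81.0% of the family per length, PTBP3 18.6% and PTBP2 0.384%. With DNMT3B-L siRNA the shares were 83.3%, 16.4% and 0.291%. PTBP1 was thus the main paralog in both libraries without PTBP1 siRNA, and PTBP2 the least.

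With PTBP1 siRNA 1 the shares were 51.1% PTBP1, 42.7% PTBP3 and 6.18% PTBP2, and with PTBP1 siRNA 2 they were 43.2%, 44.7% and 12.1%. PTBP3 therefore came close to PTBP1 in share with PTBP1 siRNA 1 and slightly above it with PTBP1 siRNA 2. Its own CPM with PTBP1 siRNA 2 were at 65.6% of control. Per length, PTBP1 went from 135 CPM per kb in control to 38.9 and 19.6 with PTBP1 siRNA 1 and 2, and PTBP2 from 0.639 to 4.71 and 5.48. The summed level of the 3 paralogs was 45.8% of control with PTBP1 siRNA 1, 27.3% with PTBP1 siRNA 2 and 103% with DNMT3B-L siRNA.

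The PTBP2 share depends on the length used, because its merged exons are much longer than its principal transcript (3027 bases). With the lengths of the principal transcripts, a choice made after seeing the data, PTBP2 made up 0.735% of the family in control, 10.97% with PTBP1 siRNA 1 and 20.3% with PTBP1 siRNA 2. The summed level was then 49.4% and 31.0% of control. By either length PTBP2 stayed below PTBP1 and PTBP3 in all 4 libraries. These are transcript levels, and protein was not measured here.

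**Figure D3:**
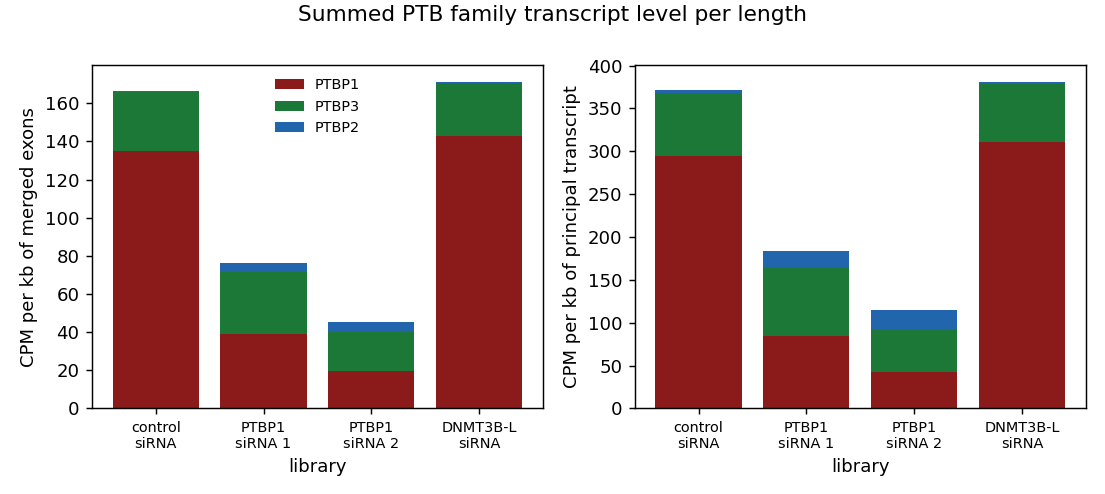
Summed level of PTBP1, PTBP3 and PTBP2 in each library as CPM per kb of merged exons (left) or of the principal transcript (right), stacked by gene from 0. The sum fell short of control with PTBP1 siRNA 1 (45.8% or 49.4%) and further with PTBP1 siRNA 2 (27.3% or 31.0%), and the PTBP2 segment was visible mainly in those libraries.

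RAVER1, which encodes a co-repressor that binds PTBP1, was at 93.6 CPM with control siRNA, 81.1 CPM with PTBP1 siRNA 1, 127 CPM with PTBP1 siRNA 2 and 96.5 CPM with DNMT3B-L siRNA. The highest and the lowest of the 4 values were those of the PTBP1 siRNA libraries. RAVER1 was at 86.6% of control with PTBP1 siRNA 1 (95% interval 81.4% to 92.2%) and 135.7% with PTBP1 siRNA 2 (128.3% to 143.6%). The siRNAs differed by 0.64 on the log2(CPM + 1) scale, as 13.9% of genes did. Their mean was 104 ± 32.5 CPM (SD, n = 2), and against control siRNA the log2 fold change came to 0.12 (standard error 0.34, 95% interval -0.63 to 0.86, adjusted p = 0.9998 in limma). RAVER1 did not pass, and its log2 ratio was -0.20 with PTBP1 siRNA 1 alone. In GENCODE v29, 33.99% of its exon bases are shared with AC011511.4 on the same strand, so part of its reads could belong to that gene.

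RAVER2, the relative of RAVER1, was at 25.9 CPM with control siRNA, 28.3 CPM with PTBP1 siRNA 1, 27.6 CPM with PTBP1 siRNA 2 and 31.4 CPM with DNMT3B-L siRNA. It varied least of the members, and the siRNA libraries differed by -0.03 on the log2(CPM + 1) scale, a size that 92.9% of genes reached. The mean over the PTBP1 siRNA libraries was 27.9 ± 0.484 CPM (SD, n = 2). Against control siRNA the log2 fold change came to 0.10 (standard error 0.32, 95% interval -0.60 to 0.80, adjusted p = 0.9998 in limma). The interval leaves room for a change of more than 1.5-fold in either direction.

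MATR3, which encodes the nuclear matrix protein matrin 3, stood under a pair of identifiers whose exons overlap. Its identifier ENSG00000280987 was at 7.15 CPM with control siRNA, 7.47 CPM with PTBP1 siRNA 1, 10.4 CPM with PTBP1 siRNA 2 and 9.40 CPM with DNMT3B-L siRNA. The other, ENSG00000015479, was at 1.47, 2.28, 1.86 and 1.79 CPM in the same order. In GENCODE v29, 90.8% of the exon bases of ENSG00000280987 and 42.5% of those of ENSG00000015479 are shared with genes of the same strand, mainly with each other. How reads over such bases were counted is not stated, and the CPM are therefore no measure of the whole MATR3 transcript level.

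Within that limit, both MATR3 identifiers lay lowest in the control library. How many of all genes were lowest there was not counted, so no result is read from this. Their sum was 8.62 CPM in control, 9.76 and 12.3 CPM with PTBP1 siRNA 1 and 2 and 11.2 CPM with DNMT3B-L siRNA. The limma log2 fold changes of PTBP1 siRNA against control were 0.31 (standard error 0.35) for ENSG00000015479 and 0.27 (standard error 0.36) for ENSG00000280987. Neither passed (adjusted p = 0.9998 for both). ENSG00000280987 was at 104.5% of control with PTBP1 siRNA 1 (95% interval 84% to 130%) and 146% with PTBP1 siRNA 2 (119% to 179%). With DNMT3B-L siRNA, an siRNA with another target, it was at 131% (107% to 163%). Of all genes tested, 6.72% had a log2 ratio at least as high with PTBP1 siRNA 2 and 16.6% with DNMT3B-L siRNA. ENSG00000015479 was at 155.8% (99.4% to 248%), 126.6% (78.6% to 206%) and 122.2% (75.1% to 199.9%) in the same library order. Each interval of ENSG00000015479 included the control level.

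Across the members, the 2 siRNAs left unlike amounts of PTBP1 and gave unlike values for PTBP3 and RAVER1, but much alike values for PTBP2 and RAVER2. With PTBP1 siRNA 2, which left less PTBP1, PTBP3 was the lowest of its 4 values and RAVER1, PTBP2 and MATR3 ENSG00000280987 the highest of theirs. How many of all genes were highest or lowest in that library was not counted, so no result is read from this order. The siRNAs differ in sequence as well as in the PTBP1 they left, and the 2 cannot be told apart here. Of the 7 identifiers, PTBP1 and PTBP2 were at least 2-fold from control with either siRNA. With PTBP1 siRNA 1, 0.629% of all genes were at least 2-fold higher and 1.51% at least 2-fold lower, and with PTBP1 siRNA 2 these shares were 0.509% and 1.65%. With DNMT3B-L siRNA they were 0.408% and 1.37%, and 0 of the 7 identifiers were that far from control.

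DNMT3B-L siRNA served as a knockdown that does not target PTBP1. No member passed limma against control (0 of 7, with 0 of 14942 genes called, 457 or 3.06% of them at an unadjusted p under 0.05). edgeR called 0 genes and DESeq2 1, which was no member. The log2 fold changes of the members lay between -0.31 for PTBP2 and 0.35 for MATR3 ENSG00000280987. DNMT3B itself was at 5.46 CPM with this siRNA against 9.77 CPM in control, 8.43 CPM with PTBP1 siRNA 1 and 13.1 CPM with PTBP1 siRNA 2. In limma the change was -0.74 on the log2 scale (standard error 0.43) and did not pass (adjusted p = 0.998), for all forms of the gene together.

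**Figure D4:**
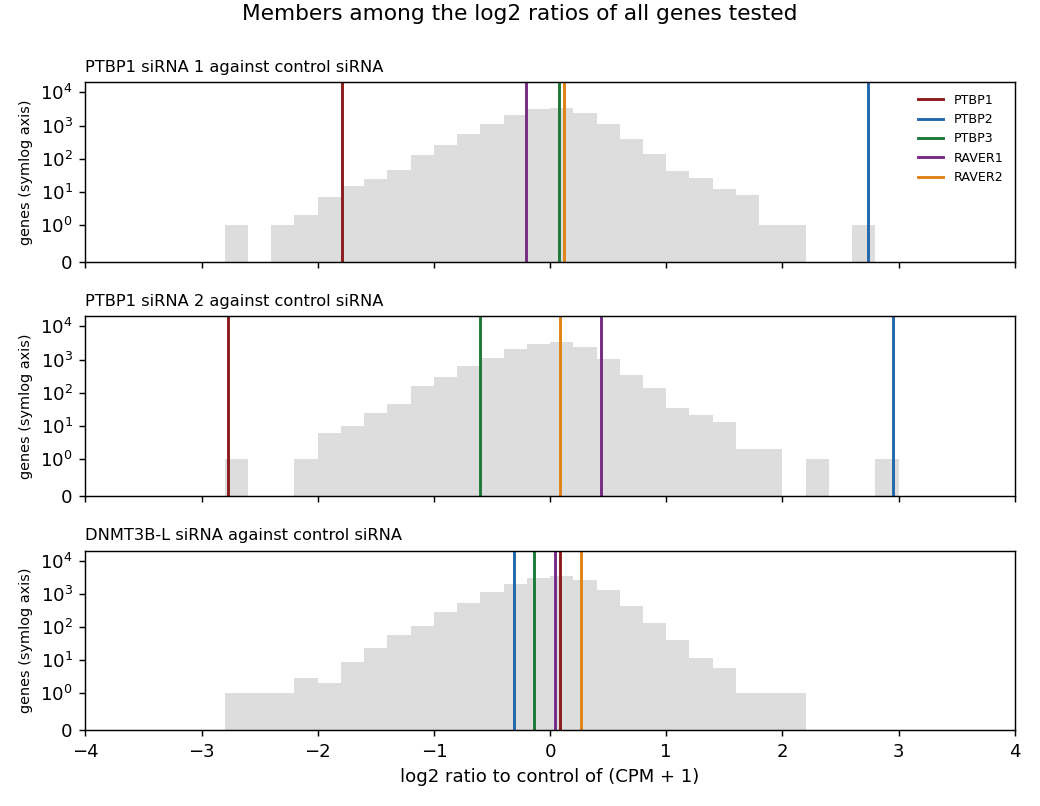
Number of genes (symlog axis, linear below 1) by log2 ratio to control of (CPM + 1) for each siRNA library over the 14942 genes tested, with lines at PTBP1, PTBP2, PTBP3, RAVER1 and RAVER2. PTBP2 lay at the right end and PTBP1 near or at the left end with the PTBP1 siRNAs, and all 5 lay in the body of the distribution with DNMT3B-L siRNA.

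Other transcripts that PTBP1 is known, mostly from mouse neurons, to lower through splicing did not share 1 direction. Of this list 5 of 6 genes were tested and 0 passed limma in either direction, while SV2A had an unadjusted p under 0.05. Their median log2 fold change with PTBP1 siRNA against control was 0.36, beside -0.01 over all genes. GABBR1, which lay at the median, was at 18.1 CPM in control and 16.15 and 34.2 CPM with PTBP1 siRNA 1 and 2. The positive median thus rests on PTBP1 siRNA 2. The summed level of the 6 genes was 107.7 CPM in control, 77.75 and 127.1 CPM with PTBP1 siRNA 1 and 2 and 82.97 CPM with DNMT3B-L siRNA. VAMP2, a synaptic vesicle SNARE, was at 16.6 CPM in control, 19.9 and 28.6 CPM with PTBP1 siRNA 1 and 2 and 15.1 CPM with DNMT3B-L siRNA. It was higher with PTBP1 siRNA 2, which left less PTBP1, than in the other libraries. SV2A, a synaptic vesicle glycoprotein, went the other way, at 36.6 CPM in control, 9.67 and 28.97 CPM with the PTBP1 siRNAs and 31.6 CPM with DNMT3B-L siRNA.

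Of 11 neuron markers, 6 were listed in all tables. RBFOX3, DCX, ELAVL2, ELAVL3 and ELAVL4, which are among the defining ones, were not among them. The summed level of the 6 was 37.2 CPM in control, 48.7 and 63.6 CPM with PTBP1 siRNA 1 and 2 and 39.99 CPM with DNMT3B-L siRNA. This sum includes SYP, and SNAP25 added more to its rise with PTBP1 siRNA 2 than any other of the markers. With PTBP1 siRNA against control, 0 of the 6 passed limma. SYP reached the filter of 1 CPM only in the PTBP1 siRNA 2 library, where it was high, so no median or count of directions is given. SNAP25, a SNARE of the presynaptic membrane, was at 2.75 CPM in control, 5.98 and 16.3 CPM with PTBP1 siRNA 1 and 2 and 1.48 CPM with DNMT3B-L siRNA. Its limma fold change on the log2 scale was 1.55 (standard error 0.47), with an unadjusted p of 0.00618 and an adjusted p of 0.9998. SYP, which encodes synaptophysin, was at 0.755, 0.955, 4.75 and 0.806 CPM, and MAP2, a microtubule protein of dendrites, at 2.75, 3.404, 5.74 and 0.627 CPM. TUBB3, a neuronal tubulin, had its lowest value with PTBP1 siRNA 2, at 4.62 CPM in control, 8.18 and 2.76 CPM with PTBP1 siRNA 1 and 2 and 3.896 CPM with DNMT3B-L siRNA. NEFL, the largest part of the sum in each library, was at 24.96 CPM in control, 28.5 and 32.4 CPM with PTBP1 siRNA 1 and 2 and 31.1 CPM with DNMT3B-L siRNA. NEFM was at 1.38, 1.70, 1.68 and 2.06 CPM in the same order. Only TUBB3, added after its values were seen, fell below control with PTBP1 siRNA 2, so the markers did not all move alike. PTBP1 siRNA 2 held the highest value for 3 of the 5 tested transcripts that PTBP1 lowers, and the control library for the other 2, SV2A and DLG4. The share of all genes that were highest in each library was not counted, so no result is read from this.

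**Figure D5:**
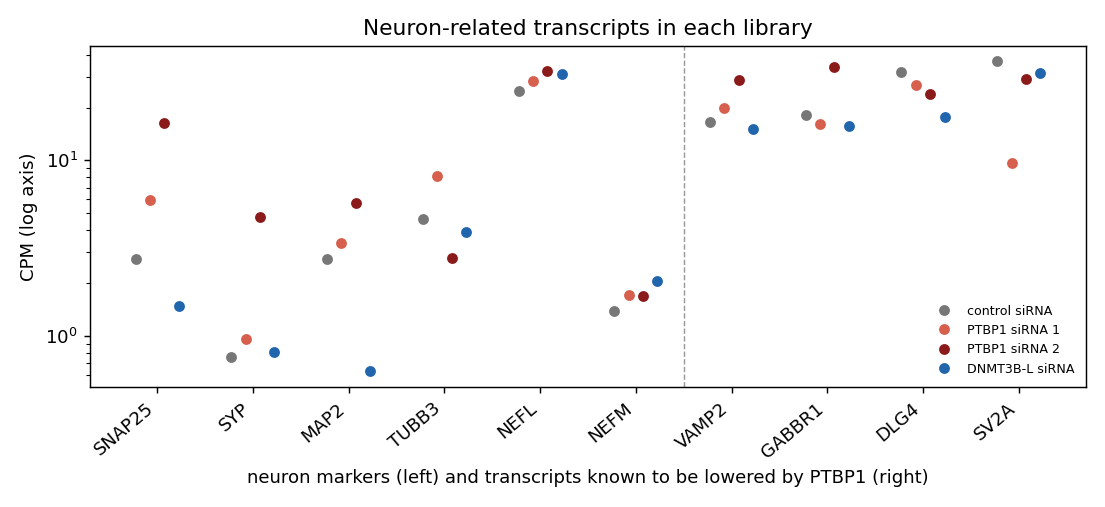
CPM (log axis) in each library of 6 neuron markers (left of the dashed line) and 4 transcripts known to be lowered by PTBP1 (right). SNAP25, SYP and MAP2 were highest with PTBP1 siRNA 2, TUBB3 was lowest there, and SV2A and DLG4 were highest in the control library.

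REST, a repressor of neuronal genes, was picked out here after its values were seen. It was lowest with PTBP1 siRNA 2, at 26.9 CPM against 47.9 CPM in control. With PTBP1 siRNA 1 it was at 59.1 CPM and with DNMT3B-L siRNA at 51.3 CPM. Its log2 fold change with PTBP1 siRNA against control was -0.255 and did not pass (adjusted p = 0.9998 in limma). Epithelial markers were also lowest with PTBP1 siRNA 2. Their summed level over 4 of 4 genes was 1727 CPM in control, 1564 and 834 CPM with PTBP1 siRNA 1 and 2 and 1487 CPM with DNMT3B-L siRNA. Most of the sum in each library was KRT8, a keratin of simple epithelia, which went from 1444 to 656 CPM with PTBP1 siRNA 2. CDH1, which encodes E-cadherin, was at 19.9, 20.0, 6.43 and 12.5 CPM, and KRT18 at 259, 276, 169 and 254 CPM, in the order control, PTBP1 siRNA 1 and 2, DNMT3B-L siRNA. EPCAM was at 3.73, 3.695, 2.245 and 11.6 CPM in that order, with its highest value under DNMT3B-L siRNA. The keratins fit an epithelial label, while EPCAM was low in CPM. Fibroblast markers summed to 16.2 to 27.2 CPM over the 2 of 5 listed in all tables, nearly all from COL1A1. Of the 4 epithelial markers 0 passed limma with PTBP1 siRNA against control. The log2 fold changes were -0.66 for KRT8 and -0.75 for CDH1 (adjusted p = 0.9998 in limma for both). The low REST and epithelial values rest on 1 library. The part of these shifts in the values of the members was not tested.

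Genes with an exon that PTBP1 is known to regulate showed no called change in level. Of 12, 9 were tested, 0 passed in either direction and the median log2 fold change was 0.04, beside -0.01 over all genes. Because limma called 1 of 14942 genes (0.00669%) in this comparison, a count of 0 in any of these short lists is near the share of all genes. TPM2, a tropomyosin, was at 12.6 CPM in control and 20.8 and 15.9 CPM with PTBP1 siRNA 1 and 2. CTTN, an actin regulator, was at 403, 363 and 279 CPM, and the death receptor FAS at 8.40, 8.59 and 4.23 CPM. A change in exon use need not alter the level of a gene, and exon use was not measured.

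Other splicing regulators that work with or beside PTBP1 showed no called change either. Of 23, 22 were tested, 0 passed (0.00669% of all genes did) and 11 had a fold change above 0. The median log2 fold change was 0.00 (lowest -0.56, highest 0.35), beside -0.01 over all genes. CELF2 was at 58.6 CPM in control and 34.7 and 44.5 CPM with PTBP1 siRNA 1 and 2, MBNL1 at 159, 124 and 96.4 CPM and HNRNPU at 646, 849 and 802 CPM. RALY, the hnRNP that the series names as a partner of PTBP1, was at 151 CPM in control, 178 and 152 CPM with PTBP1 siRNA 1 and 2 and 158 CPM with DNMT3B-L siRNA.

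Nonsense-mediated decay factors, on which the low PTBP2 level is known to depend, also showed no called change. All 10 were tested, 0 passed (0.00669% of all genes did) and their median log2 fold change was 0.09, beside -0.01 over all genes. SMG9 was at 62.2 CPM in control and 80.3 and 99.8 CPM with PTBP1 siRNA 1 and 2, and UPF3A at 5.29, 6.18 and 6.74 CPM. In the lists described here the unadjusted p was under 0.05 for SV2A and SNAP25. Over all genes 396 (2.65%) had such a p in PTBP1 siRNA against control, edgeR called 0, and the 2 genes called by DESeq2 were PTBP1 and PTBP2.

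The genes most like PTBP1 in their 3 log2 ratios to control, by Euclidean distance over 11074 genes with an average of at least 5 CPM, were CAV1 (distance 0.962), TMEM64 (1.17) and LRRC8A (1.40). CAV1, which encodes the caveolar coat protein caveolin 1, was at 353 CPM in control, 136 and 92.9 CPM with PTBP1 siRNA 1 and 2 and 346 CPM with DNMT3B-L siRNA. Like PTBP1 it was lower with PTBP1 siRNA 2 than with PTBP1 siRNA 1, but it was picked for likeness in these same ratios. TMEM64 was at 74.4, 22.8, 23.2 and 64.8 CPM, and LRRC8A, a subunit of the volume-regulated anion channel, at 142, 50.4, 49.5 and 105 CPM, with nearly equal values for the 2 siRNAs.

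The genes nearest to PTBP2 were farther away, namely SNAP25 (distance 2.01), GPAT3 (2.07) and TMEM158 (2.26). GPAT3, an acyltransferase of glycerolipid synthesis, was at 49.4 CPM in control, 155 and 124 CPM with PTBP1 siRNA 1 and 2 and 59.1 CPM with DNMT3B-L siRNA. TMEM158 was at 7.60, 24.1, 19.1 and 11.2 CPM. Both were higher with PTBP1 siRNA 1 than with PTBP1 siRNA 2, the reverse of PTBP2 and SNAP25. All 3 ratios of a gene share the control library.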

How the data were processed

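RNA-seq of 4 DU145 libraries was used. HTSeq 0.6.1, HISAT2 2.1.0 and bcl2fastq 2.19.1 are listed as tools, and GRCh37 and hg19 as builds, in the submitters' processing notes. The authors deposited CPM per gene, 1 table per library. The counting mode and annotation are not given in the sources used here. Values in a library were whole multiples of 1 read pair for 100% of genes (tolerance 0.001), except for 176 to 223 genes per library listed at the lowest value and taken as 0 pairs. Exact Poisson intervals (95%) used these read pairs. The 3111 genes missing from a table (at most 4.70 CPM elsewhere) were left out.

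limma 3.58.1 (R 4.3.3) with the trend option tested log2(CPM + 1), which understates changes of low genes, for genes with at least 1 CPM in at least 1 library, in 1 fit of all 4 libraries (1 residual and 11.5 prior degrees of freedom). edgeR 4.0.16 and DESeq2 1.42.0 on recovered read pairs (they called 0 and 2 genes for PTBP1 siRNA against control siRNA), other pseudocounts, filters, scalings and references were alternatives. Scripts were tested on simulated data. Gene models came from GENCODE v29 (GRCh38), another build than the files', and were matched by identifier. The genes named were the members, the 3 genes with the smallest p of each list, the 3 nearest in pattern and DNMT3B. A few that the rule would name are not reported here. RALY, REST, TUBB3, EPCAM, NEFL, NEFM, DLG4 and GABBR1 were added after their values were seen. The members and lists were chosen with earlier results of these data known.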

Additional observations from a re-analysis of the deposited data

How the results depend on the processing

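No paired analysis was possible because nothing in the labels pairs the libraries and the groups share fewer than 2 replicate numbers. For PTBP1 siRNA against control siRNA, the genes called and the members called, 1 each in limma, were 0 with no filter on low values, under quantile normalization and with edgeR under TMM or upper-quartile factors, and 2 (PTBP1 and PTBP2) with DESeq2 and with the control and DNMT3B-L libraries together as the reference. For PTBP1 siRNA against DNMT3B-L siRNA, the 1 gene and 1 member called were 0 with no filter, under quantile normalization and with edgeR under upper-quartile factors, and 4 genes and 2 members with DESeq2. For DNMT3B-L siRNA against control siRNA, DESeq2 called 1 gene in place of 0. The prior degrees of freedom were 11.5 in the reported test, 3.95 with no filter and 4.21 under quantile normalization; the cause of the differences between tools was not tested. RAVER2 turned to -0.0303 with the joint reference. Against DNMT3B-L siRNA, MBNL1 turned to 0.011 with edgeR under upper-quartile factors, and CDH1 to 0.10 with edgeR under TMM factors, 0.11 under upper-quartile factors and 0.10 with DESeq2 (log2 fold changes, none called). Without 1 PTBP1 siRNA library no degrees of freedom remain, and the log2 ratios to control without a test ran from -2.77 to -1.79 for PTBP1, 2.74 to 2.96 for PTBP2, -0.60 to 0.07 for PTBP3 and -0.20 to 0.44 for RAVER1. TMM factors lay between 0.996 and 1.006. At the depth of these libraries the counting intervals of PTBP1, PTBP3 and RAVER1 were narrow beside the difference between the 2 siRNAs, and those of the MATR3 identifiers, on 33 to 242 read pairs, were wide.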
